A study of Homo sapiens with 18 samples.

Results

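The nuclear pore complex genes were followed through knockdown of EMD in 3 human prostate cancer cell lines. EMD is the gene of emerin, which sits in the inner nuclear membrane and binds lamins. The group was defined by name: 31 genes of the pore were found by symbol in the DU145 table and then by unversioned Ensembl identifier in the other tables. All 31 were present in each table, among 22360 genes for C4-2B, 25716 for 22Rv1 and 37256 for DU145, and all 31 passed the filter on low counts in each line. They were sorted by their place in the pore into the Y complex of the outer rings (9 genes), the inner ring (5), the central channel (4), the membrane ring (3), the cytoplasmic filaments with the mRNA release factors (7) and the nuclear basket (3).

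RNA sequencing was done on 18 libraries, 3 with EMD knockdown and 3 controls in each line. C4-2B derives from LNCaP and is castration-resistant, 22Rv1 was grown out of a relapsed xenograft, and the origin of DU145 is a metastasis to the brain. Per the labels, knockdown cells received siRNA against EMD and control cells a scrambled siRNA, both with Lipofectamine, and the mix was taken off after 24 h. The medium was RPMI-1640 for C4-2B and for 22Rv1, and DMEM for DU145. The names of the DU145 knockdown libraries carry the mark shEMD, which usually denotes a short hairpin vector, and the labels do not settle which reagent was used there. How long after transfection the cells were harvested is not given. Cell line, table, batch label and, for DU145, medium coincide, so these cannot be told apart in any difference between lines. The libraries were described as triplicates without a statement that they were separate cultures. The p-values thus set each difference against the spread between these libraries, which may be technical.

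The nuclear pore complex is the channel through which proteins and RNA pass between nucleus and cytoplasm. Its scaffold consists of outer rings made of Y-shaped complexes and an inner ring held to the nuclear envelope by transmembrane proteins, and its channel is filled by subunits rich in phenylalanine-glycine (FG) repeats that bind transport receptors. Filaments on the cytoplasmic face release exported mRNA, a basket on the nuclear face receives cargo, and in dividing cells the pores come apart and are rebuilt around the chromosomes at each mitosis.

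C4-2B libraries held 14722733 to 25112148 reads, 22Rv1 libraries 15602874 to 30788078 and DU145 libraries 21024352 to 43311727, and a pore gene had between 96 and 17798 reads in a library. Levels are in CPM, the count of a gene scaled to a common library size by TMM within a line. Changes are log2 ratios of knockdown to control with their standard error (SE), and a gene is said to rise or fall where the Benjamini-Hochberg adjusted p of edgeR's quasi-likelihood test was under 0.05. EMD itself fell in each line. It stood at 8.49, 10.0 and 6.38 CPM after knockdown against 67.2, 75.1 and 67.3 CPM in controls of C4-2B, a log2 change of -3.07. In 22Rv1 it read 21.2, 19.6 and 17.5 CPM after knockdown against 65.4, 69.7 and 60.9 CPM in controls (-1.73), and in DU145 4.61, 4.77 and 5.01 CPM against 45.1, 47.7 and 40.7 CPM (-3.21). Summed in CPM of the library total, the prostate markers KLK2, KLK3, TMPRSS2, FOLH1 and HOXB13 gave 3454 to 3578 CPM after knockdown and 3829 to 3903 CPM in controls of C4-2B, and 884.4 to 912.6 CPM after knockdown and 1031 to 1062 CPM in controls of 22Rv1. Among them FOLH1 averaged 1724 CPM after knockdown and 1266 CPM in controls of C4-2B. The means of KLK3 (966.4 against 1480.5 CPM), KLK2 (238.9 against 345.2 CPM), TMPRSS2 (392.9 against 558.3 CPM) and HOXB13 (186.6 against 209.6 CPM) were lower after knockdown there. In 22Rv1 TMPRSS2 averaged 14.3 CPM after knockdown and 100.5 CPM in controls. In DU145 the 5 summed to at most 2.06 CPM in any library, with HOXB13 at 0 in the controls. The 4 epithelial markers EPCAM, KRT8, KRT18 and CDH1 were present in each line. Their sum was 1676 to 1707 CPM after knockdown and 1465 to 1503 CPM in controls of C4-2B, 1287 to 1315 CPM after knockdown and 1737 to 1812 CPM in controls of 22Rv1, and 1047 to 1077 CPM after knockdown and 2012 to 2129 CPM in controls of DU145. In DU145 KRT8 averaged 408.7 CPM after knockdown and 1222 CPM in controls, CDH1 5.12 and 22.2 CPM, and EPCAM 109.3 and 71.3 CPM. The single markers given here were picked after their values were seen, and the part of these markers in the results on pore genes was not tested. Markers of fibroblasts, endothelium and blood together summed to at most 7.76 CPM in any library. Of these 10 markers, all 10 were listed for DU145, 6 for 22Rv1 and 4 for C4-2B, so the sums of the latter lines cover fewer genes. Replicates of a group resembled each other, with correlations of log2 levels across genes between 0.9925 and 0.9977, and the counts of replicate pairs differed by more than sampling noise (chi-square per degree of freedom between 2.31 and 8.40), so no library was a copy of another.

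The pore genes mostly fell after EMD knockdown in C4-2B, mostly rose in 22Rv1 and went both ways in DU145. In C4-2B, 19 of the 31 fell and 0 rose in edgeR, while 41.7% of all tested genes changed, 22.3% falling and 19.4% rising. In 22Rv1, 26 rose and 2 fell, against a background of 67.8% changed, 33.5% rising and 34.3% falling. In DU145, 15 rose and 8 fell, against 47.6% changed, 24.1% rising and 23.6% falling. The median log2 fold change of the 31 genes was -0.18 in C4-2B, 0.33 in 22Rv1 and 0.11 in DU145, where the medians over all tested genes were 0.013, -0.004 and 0.012. No pore gene changed by 2-fold or more in any line. The 3 knockdown and 3 control libraries did not overlap for 24 pore genes in C4-2B, 27 in 22Rv1 and 25 in DU145, where this held for 50.5%, 71% and 54.8% of all tested genes of those lines.

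Of the 31 genes, 30 were lower after knockdown in C4-2B, the exception being AAAS at a log2 fold change of 0.01 ± 0.07. At an unadjusted p under 0.05 the C4-2B counts were 20 lower and 0 higher, and DESeq2 called 18 lower and 0 higher. Over all tested genes of C4-2B, 3068 rose and 3516 fell with TMM and 3871 rose and 2922 fell with library totals in its place, where 16 pore genes fell and 0 rose. Falling shares in C4-2B varied with level, at 6.04% of all genes under 2 CPM, 29.7% between 30 and 100 CPM and 39.5% from 100 CPM upwards. The rising shares in these ranges were 9.7%, 22.9% and 25.3%. Of the pore genes, 16 lay between 30 and 100 CPM in C4-2B and 11 from 100 CPM upwards. In 22Rv1 the response of all genes varied with their level: the median log2 fold change was -0.48 for genes under 2 CPM, -0.33 between 2 and 10 CPM, -0.03 between 10 and 30 CPM, 0.13 between 30 and 100 CPM and 0.15 from 100 CPM upwards. Within the upper ranges, where 30 of the 31 pore genes lie, the medians of the pore genes were 0.33 (15 genes between 30 and 100 CPM) and 0.29 (15 genes from 100 CPM upwards), and 49.8% and 55.2% of all genes there rose. All DU145 pore genes lay at 30 CPM or more, 13 between 30 and 100 CPM and 18 from 100 CPM upwards. Of all genes in these ranges of DU145, 33.3% and 36.1% rose, and 34.8% and 32.7% fell. In DU145 the count of rising pore genes rested in part on 1 library, since it was 9 without knockdown replicate 2 and between 13 and 17 without any other single library.

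**Figure D1:**
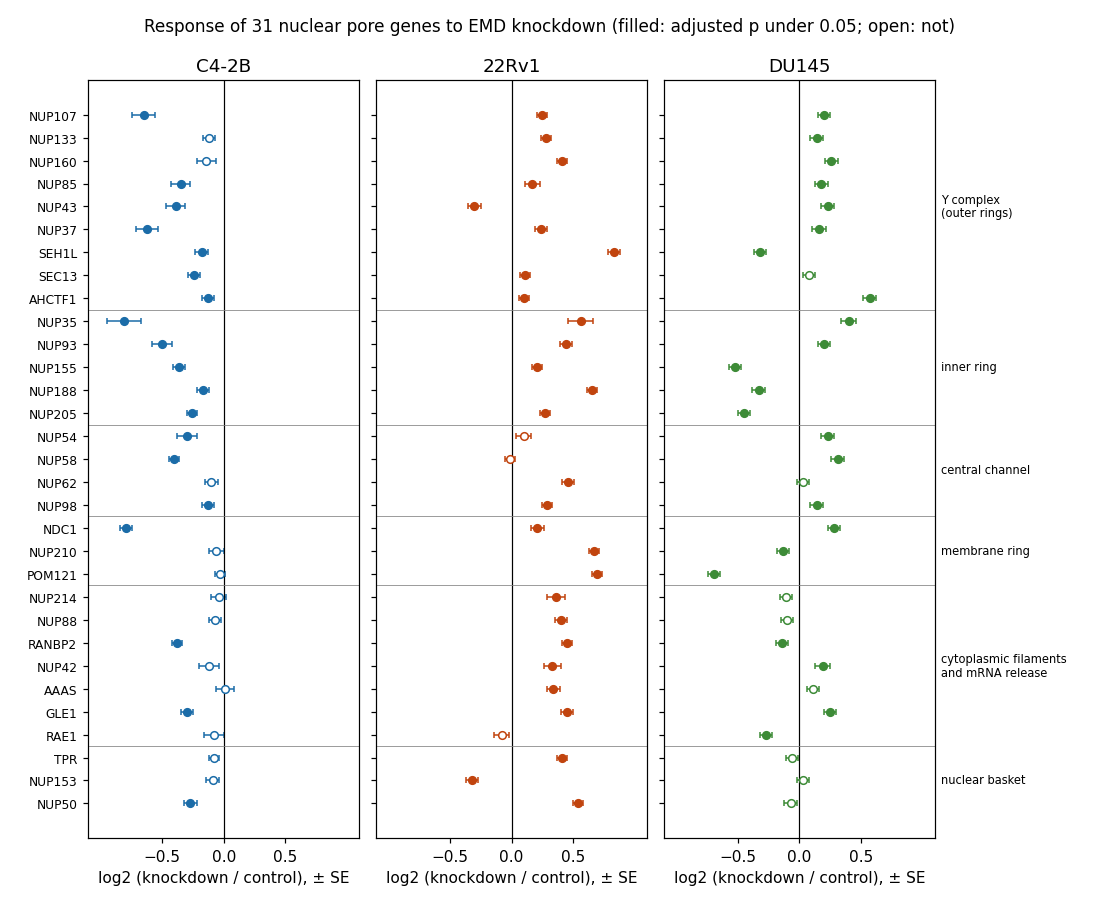
Log2 fold change (EMD knockdown over control, x axis) with its standard error for each of the 31 pore genes (y axis), grouped by subcomplex, in C4-2B, 22Rv1 and DU145. Filled points have an edgeR adjusted p under 0.05: 19 genes lie left of 0 in C4-2B, 26 lie right of 0 and 2 left in 22Rv1, and 15 lie right and 8 left in DU145.

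Summed over all 31 genes, pore transcripts came to 2579, 2707 and 2706 CPM after knockdown and to 3097, 3142 and 3109 CPM in controls of C4-2B, a ratio of 0.855. In 22Rv1 the sums were 4525, 4473 and 4544 CPM after knockdown, against 3635, 3477 and 3445 CPM in controls, a ratio of 1.28. In DU145 they were 3918, 4105 and 3943 CPM after knockdown, against 3954, 4125 and 4119 CPM in controls. The groups were apart in C4-2B and 22Rv1 and overlapped in DU145, where the ratio was 0.981. CPM sums give long transcripts more weight, and in bulk samples fewer cells of a kind and less RNA per cell cannot be told apart.

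The sums of the subcomplexes followed the whole in C4-2B and 22Rv1 and parted in DU145. A sum can rest on few genes, and in C4-2B only 1 of 3 membrane ring, 2 of 7 filament and 1 of 3 basket genes fell in edgeR. In C4-2B all 6 sums were lower after knockdown, with ratios between 0.808 for the inner ring and 0.911 for the nuclear basket, and in 22Rv1 all 6 were higher, between 1.16 for the Y complex and 1.52 for the membrane ring. In DU145 the Y complex summed to 905, 956 and 905 CPM after knockdown, against 787, 798 and 796 CPM in controls (ratio 1.16). Of its 9 genes 7 rose and 1 fell there, and AHCTF1 alone averaged 273.3 CPM after knockdown and 183.4 CPM in controls. The DU145 inner ring summed to 772, 829 and 784 CPM after knockdown, against 942, 1007 and 991 CPM in controls (ratio 0.811). Within it 3 genes fell, while NUP35 and NUP93 rose. The DU145 central channel was higher at a ratio of 1.12 and the membrane ring lower at 0.855, each without overlap between the groups, while the groups overlapped for the filaments (0.968) and the basket (0.98). In that membrane ring POM121 averaged 116.2 CPM after knockdown and 187.5 CPM in controls, NUP210 130.6 and 143.1 CPM, and NDC1 rose.

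**Figure D2:**
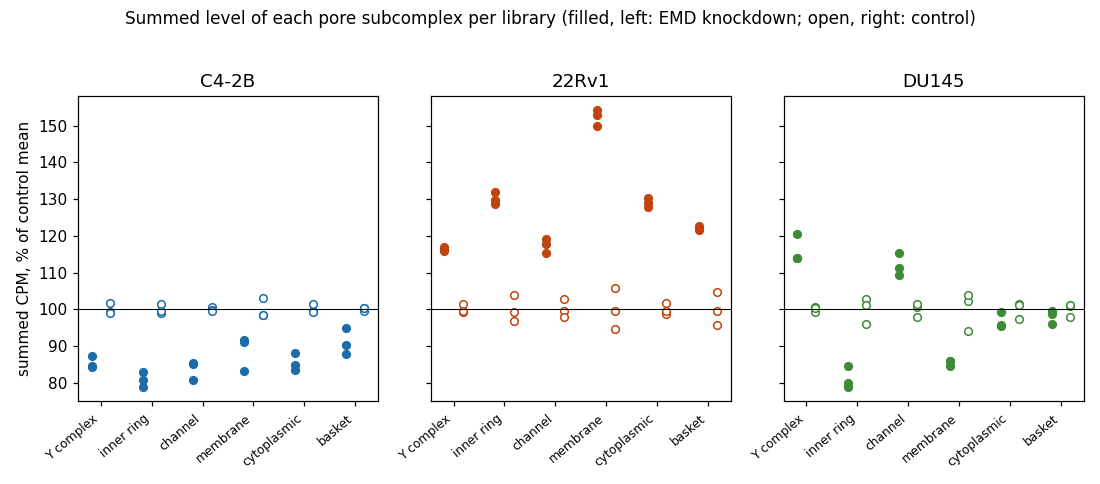
Summed level of each pore subcomplex per library, as a percentage of the mean of the controls of the line (y axis), for knockdown (filled, left of each pair) and control libraries (open, right) in C4-2B, 22Rv1 and DU145. All knockdown sums lie below the controls in C4-2B and above them in 22Rv1, and in DU145 the Y complex (ratio 1.16) lies above and the inner ring (0.811) below.

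RefSeq (GRCh38.p14) gave a promoter window for 28 of the 31 genes, from 250 bases before to 50 bases after the transcription start, and none for NUP43, GLE1 and AHCTF1. The windows below belong to the 3 genes that fell most in C4-2B, NUP35 (chr2:183124193-183124492, plus strand), NDC1 (chr1:53838247-53838546, minus strand) and NUP107 (chr12:68686728-68687027, plus strand), and to POM121 (chr7:72879107-72879406, plus strand), which moved oppositely in 22Rv1 and DU145. The RefSeq starts of NUP35, NDC1 and NUP107 lie inside the genes as GENCODE v29 draws them. Each is written 5′ to 3′ on the strand of the gene, with capitals marking matches on either strand to CCAAT (the core of NF-Y sites), TTTGAA (the cell cycle element CHR), CCGGAAG (ETS factors) or GCGCATGC (NRF1). The GCGCATGC motif is partly its own reverse complement, so in NUP107 its 2 matches overlap, while the matches to different motifs do not.
NUP35: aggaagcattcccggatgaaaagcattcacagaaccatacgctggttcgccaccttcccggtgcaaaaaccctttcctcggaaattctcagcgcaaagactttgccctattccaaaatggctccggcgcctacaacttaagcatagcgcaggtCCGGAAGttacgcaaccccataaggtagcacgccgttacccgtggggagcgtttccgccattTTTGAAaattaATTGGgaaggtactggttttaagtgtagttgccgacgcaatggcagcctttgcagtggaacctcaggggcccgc
NDC1: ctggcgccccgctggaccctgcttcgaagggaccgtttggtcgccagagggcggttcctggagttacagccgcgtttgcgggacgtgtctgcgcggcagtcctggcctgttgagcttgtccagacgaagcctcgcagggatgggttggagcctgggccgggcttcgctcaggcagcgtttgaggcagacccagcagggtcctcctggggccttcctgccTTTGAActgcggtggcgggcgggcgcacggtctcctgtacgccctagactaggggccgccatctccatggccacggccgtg
NUP107: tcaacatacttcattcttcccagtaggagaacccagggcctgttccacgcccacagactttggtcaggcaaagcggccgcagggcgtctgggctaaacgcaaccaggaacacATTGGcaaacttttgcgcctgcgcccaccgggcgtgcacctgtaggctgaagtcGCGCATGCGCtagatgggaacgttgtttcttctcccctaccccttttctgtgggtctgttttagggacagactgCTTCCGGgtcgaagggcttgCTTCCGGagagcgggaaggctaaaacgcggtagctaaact
POM121: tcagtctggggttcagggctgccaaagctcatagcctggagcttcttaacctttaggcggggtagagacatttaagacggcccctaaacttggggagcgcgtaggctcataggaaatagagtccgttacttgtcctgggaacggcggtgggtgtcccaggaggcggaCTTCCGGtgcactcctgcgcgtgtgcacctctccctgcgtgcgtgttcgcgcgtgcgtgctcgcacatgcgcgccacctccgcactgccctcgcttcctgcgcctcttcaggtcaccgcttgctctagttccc

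The 6 short motifs searched on both strands were these 4 and the E2F letters TTTCCCGC with their variant TTTGGCGC. CCGGAAG was found in 12 of the 28 pore windows (42.9%), against 10.7% of all 27305 RefSeq windows. Among the windows printed above, which were picked by response, it was present in NUP35, NUP107 and POM121 and not in NDC1. Its presence was not compared with the response over the 28 windows. CCAAT was found in 11 (39.3%), against 35.7% of all windows, and TTTGAA in 6 (21.4%), against 15.4%. GCGCATGC was in 3 windows, those of NUP107, NUP50 and NUP62 (10.7%, against 3.27%), TTTGGCGC in 1, that of NUP155 (3.57%, against 0.659%), and TTTCCCGC in 0 (against 1.66%). The median GC content was 63.5% in the pore windows and 58.3% in all windows. The letters CG, which CCGGAAG and GCGCATGC contain, occurred at a median of 27 times in the pore windows and 14 times in all windows. How far this bears on the motif shares was not tested. All windows include those of noncoding genes, so the shares describe the letters and make no test. A match is a string of letters and not a bound site, and the lack of a match says only that the letters are not in this window.

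The Y complex forms the outer rings on both faces of the pore. In C4-2B 7 of its 9 genes fell, in 22Rv1 8 rose and 1 fell, and in DU145 7 rose and 1 fell. NUP107, a subunit of the stem of the Y, fell by 1.57-fold in C4-2B. In C4-2B, NUP107 stood at 20.8, 21.7 and 25.0 CPM in the knockdown libraries and at 37.2, 36.2 and 33.2 CPM in the controls. In 22Rv1, NUP107 read 124, 129 and 121 CPM after knockdown, against 103, 108 and 104 CPM in the controls. In DU145, NUP107 had 125, 133 and 125 CPM after knockdown, against 114, 109 and 109.9 CPM in the controls. The groups were apart in each line, with log2 fold changes of -0.65 ± 0.09 in C4-2B (adjusted p = 1.08e-06), 0.25 ± 0.04 in 22Rv1 (adjusted p = 3.40e-05) and 0.20 ± 0.05 in DU145 (adjusted p = 0.000855). Without knockdown replicate 2 the DU145 value was 0.17 (adjusted p = 0.0596). NUP37, a small propeller-shaped subunit that binds NUP160, moved in the same 3 directions. In C4-2B, NUP37 stood at 16.2, 18.1 and 17.2 CPM in the knockdown libraries and at 28.4, 24.4 and 26.8 CPM in the controls. In 22Rv1, NUP37 read 59.0, 54.5 and 56.5 CPM after knockdown, against 46.7, 48.2 and 48.8 CPM in the controls. In DU145, NUP37 had 46.2, 50.9 and 44.6 CPM after knockdown, against 41.0, 41.8 and 43.4 CPM in the controls. Its log2 fold changes were -0.62 ± 0.09 in C4-2B (adjusted p = 5.28e-06), 0.24 ± 0.05 in 22Rv1 (adjusted p = 0.000514) and 0.16 ± 0.06 in DU145 (adjusted p = 0.018), with no overlap between groups. The DU145 call was lost without knockdown replicate 2 (adjusted p = 0.311), without control replicate 1 (0.0664) and in DESeq2 (0.0793).

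NUP85, in 1 arm of the Y, fell in C4-2B and rose in the other lines. In C4-2B, NUP85 stood at 26.4, 23.5 and 24.4 CPM in the knockdown libraries and at 29.2, 33.3 and 32.0 CPM in the controls. In 22Rv1, NUP85 read 47.3, 46.3 and 45.5 CPM after knockdown, against 42, 40.6 and 41.4 CPM in the controls. In DU145, NUP85 had 68.4, 68.6 and 68.8 CPM after knockdown, against 59.9, 60.6 and 61.0 CPM in the controls. The groups stayed apart in each line and the log2 fold changes were -0.35 ± 0.08 in C4-2B (adjusted p = 0.00147), 0.17 ± 0.06 in 22Rv1 (adjusted p = 0.0132) and 0.18 ± 0.05 in DU145 (adjusted p = 0.00268). The 22Rv1 call was lost without knockdown replicate 1 (adjusted p = 0.075), under library totals (0.186), cyclic loess (0.282) and the fit of all 18 libraries (0.0692), and the DU145 call without knockdown replicate 2 (0.0502). NUP43, another propeller subunit that occurs in metazoan Y complexes, was the 1 gene of the Y that fell in both C4-2B and 22Rv1. In C4-2B, NUP43 stood at 30.3, 26.3 and 27.5 CPM in the knockdown libraries and at 36.5, 34.6 and 38.9 CPM in the controls. In 22Rv1, NUP43 read 79.3, 78.1 and 81.0 CPM after knockdown, against 93.6, 101 and 99.3 CPM in the controls. In DU145, NUP43 had 48.1, 53.0 and 49.9 CPM after knockdown, against 42.8, 42.7 and 42.9 CPM in the controls. Its log2 fold changes were -0.39 ± 0.08 in C4-2B (adjusted p = 0.000349), -0.30 ± 0.05 in 22Rv1 (adjusted p = 8.50e-06) and 0.23 ± 0.05 in DU145 (adjusted p = 0.000621), and no groups overlapped. NUP43 shares its locus with PCMT1 on the opposite strand, and since the strand setting of the counting is not given, reads of the pair cannot be told apart.

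SEH1L, which binds NUP85 and also serves in the GATOR2 complex of amino acid signalling, rose most of all pore genes in 22Rv1. In C4-2B, SEH1L stood at 79.2, 78.1 and 78.1 CPM in the knockdown libraries and at 89.2, 86.6 and 90.6 CPM in the controls. In 22Rv1, SEH1L read 130.3, 120.1 and 124 CPM after knockdown, against 71.4, 68.9 and 70.8 CPM in the controls. In DU145, SEH1L had 106, 109.5 and 102 CPM after knockdown, against 132, 133 and 131 CPM in the controls. It was 1.77-fold higher after knockdown in 22Rv1 (log2 0.83 ± 0.05, adjusted p = 2.76e-12) and fell in C4-2B (-0.18 ± 0.05, adjusted p = 0.00557) and DU145 (-0.32 ± 0.05, adjusted p = 2.09e-06), each without overlap. AHCTF1 (ELYS) recruits Y complexes to chromatin as pores re-form after mitosis, and it rose most of all pore genes in DU145. In C4-2B, AHCTF1 stood at 112, 119 and 121 CPM in the knockdown libraries and at 130.1, 123 and 131 CPM in the controls. In 22Rv1, AHCTF1 read 258, 262 and 259 CPM after knockdown, against 259, 227 and 239.9 CPM in the controls. In DU145, AHCTF1 had 266, 283 and 271 CPM after knockdown, against 180.0, 182 and 189 CPM in the controls. In DU145 the knockdown libraries were all well above the controls (log2 0.57 ± 0.05, adjusted p = 6.01e-11). In C4-2B the fall was small (-0.13 ± 0.05, adjusted p = 0.0273) and was lost without control replicate 1 (adjusted p = 0.0743), control replicate 3 (0.11) or knockdown replicate 1 (0.0999), under library totals (0.197) and under cyclic loess (0.15). In 22Rv1 the groups overlapped, the log2 fold change was 0.10 ± 0.04 (adjusted p = 0.0431), and under cyclic loess it turned to -0.04 (adjusted p = 0.473). That 22Rv1 call was also lost in DESeq2 (adjusted p = 0.0726), under library totals (0.695), in the fit of all 18 libraries (0.306), and without knockdown replicate 1 (0.109), 2 (0.119) or 3 (0.112) or control replicate 2 (0.208) or 3 (0.109).

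The remaining members of the Y were NUP133, NUP160 and SEC13. NUP133, at the end of the stem, averaged 156 ± 1.59 CPM in knockdown libraries and 129 ± 4.28 CPM in controls in 22Rv1 and rose there (0.28 ± 0.04, adjusted p = 3.40e-06). It rose in DU145 too (0.14 ± 0.05, adjusted p = 0.0195), a call lost without knockdown replicate 2 (0.277) or control replicate 1 (0.0735), in DESeq2 (0.0789) and without the filter on low counts (0.0699). In C4-2B its log2 fold change was -0.12 ± 0.05 (adjusted p = 0.0744), past the threshold without knockdown replicate 3 (0.0252) and in the fit of all 18 libraries (0.041). NUP160, in an arm of the Y, rose in 22Rv1 (0.41 ± 0.04, adjusted p = 7.78e-08) and DU145 (0.26 ± 0.05, adjusted p = 9.43e-05), and in C4-2B it was -0.14 ± 0.08 (adjusted p = 0.158), or -0.22 without control replicate 1 (adjusted p = 0.025). SEC13, which also builds the COPII coat of vesicles leaving the endoplasmic reticulum, averaged 103 ± 4.58 CPM in knockdown libraries and 122 ± 3.07 CPM in controls in C4-2B and fell there (-0.24 ± 0.05, adjusted p = 0.000231). In 22Rv1 it was 0.11 ± 0.04 (adjusted p = 0.0358), which turned to -0.03 under cyclic loess (adjusted p = 0.543) and missed the threshold without knockdown replicate 1 (0.122), 2 (0.0774) or 3 (0.0964) and without control replicate 1 (0.116) or 2 (0.0659). It also missed in DESeq2 (0.083), under library totals (0.593), without the filter (0.0666) and in the fit of all 18 libraries (0.244). In DU145 SEC13 was 0.08 ± 0.05 (adjusted p = 0.21), and past the threshold under library totals (0.00954) and without knockdown replicate 3 (0.0158).

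All 5 inner ring genes fell in C4-2B and all 5 rose in 22Rv1, while in DU145 2 rose and 3 fell. NUP35, a membrane-binding linker of the ring, had the largest fall of the pore genes in C4-2B. In C4-2B, NUP35 stood at 6.47, 7.94 and 7.35 CPM in the knockdown libraries and at 12.4, 12.1 and 13.7 CPM in the controls. In 22Rv1, NUP35 read 20.8, 21.7 and 21.7 CPM after knockdown, against 16.6, 12.6 and 13.9 CPM in the controls. In DU145, NUP35 had 39.4, 41.8 and 37.7 CPM after knockdown, against 33.2, 28.1 and 29.3 CPM in the controls. The log2 fold changes were -0.81 ± 0.14 in C4-2B (adjusted p = 3.73e-05), 0.56 ± 0.10 in 22Rv1 (adjusted p = 4.37e-05) and 0.40 ± 0.06 in DU145 (adjusted p = 5.92e-06). No groups overlapped, and the lowest C4-2B library held 96 reads of NUP35. NUP93, the linker that ties the ring to the channel subunits, moved the same way. In C4-2B, NUP93 stood at 30.5, 31.5 and 35.7 CPM in the knockdown libraries and at 45.1, 44.8 and 48.2 CPM in the controls. In 22Rv1, NUP93 read 57.3, 57.1 and 56.6 CPM after knockdown, against 40.5, 42.6 and 43.2 CPM in the controls. In DU145, NUP93 had 142, 149 and 142 CPM after knockdown, against 125, 127 and 124 CPM in the controls. It fell in C4-2B by -0.50 ± 0.08 on the log2 scale (adjusted p = 6.12e-06) and rose by 0.44 ± 0.05 in 22Rv1 (adjusted p = 5.34e-07) and 0.20 ± 0.05 in DU145 (adjusted p = 0.000659), with all groups apart.

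NUP155, NUP188 and NUP205, the large scaffold subunits of the ring, fell in both C4-2B and DU145 and rose in 22Rv1. In C4-2B, NUP155 stood at 88.9, 97.7 and 90.0 CPM in the knockdown libraries and at 111, 124 and 122 CPM in the controls. In 22Rv1, NUP155 read 159, 155 and 165 CPM after knockdown, against 144, 137 and 134 CPM in the controls. In DU145, NUP155 had 199, 220.4 and 207 CPM after knockdown, against 283, 314 and 302 CPM in the controls. NUP155 thus fell in C4-2B (-0.36 ± 0.05, adjusted p = 3.69e-06) and by 1.44-fold in DU145 (-0.52 ± 0.05, adjusted p = 1.82e-09), and rose in 22Rv1 (0.21 ± 0.04, adjusted p = 0.000181), a rise that missed the threshold under cyclic loess (0.06, adjusted p = 0.179). In C4-2B, NUP188 stood at 69.4, 72.1 and 76.9 CPM in the knockdown libraries and at 82.4, 80.2 and 83.6 CPM in the controls. In 22Rv1, NUP188 read 252, 240.0 and 254 CPM after knockdown, against 165, 161 and 150.1 CPM in the controls. In DU145, NUP188 had 212, 228 and 217 CPM after knockdown, against 259, 286 and 281 CPM in the controls. NUP188 fell in C4-2B (-0.17 ± 0.05, adjusted p = 0.0119) and DU145 (-0.33 ± 0.05, adjusted p = 2.87e-06) and rose in 22Rv1 (0.65 ± 0.04, adjusted p = 2.65e-11). The C4-2B call was lost without control replicate 3 (adjusted p = 0.0532), under library totals (0.0803) and under cyclic loess (0.0525), and NUP188 overlaps SH3GLB2 on the opposite strand. In C4-2B, NUP205 stood at 158, 163 and 152 CPM in the knockdown libraries and at 194, 195 and 179 CPM in the controls. In 22Rv1, NUP205 read 319, 327 and 325 CPM after knockdown, against 281, 265 and 261 CPM in the controls. In DU145, NUP205 had 179, 191 and 180.1 CPM after knockdown, against 242, 252 and 255 CPM in the controls. NUP205, a paralog of NUP188, fell in C4-2B (-0.26 ± 0.04, adjusted p = 3.24e-05) and DU145 (-0.45 ± 0.05, adjusted p = 8.78e-09) and rose in 22Rv1 (0.27 ± 0.04, adjusted p = 1.69e-06). For all of these large subunits the groups were apart in each line.

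In the central channel 3 of 4 genes fell in C4-2B, 2 rose in 22Rv1 and 3 rose in DU145. NUP58, which forms the FG-rich channel trimer with NUP54 and NUP62, was called in C4-2B and DU145 but not in 22Rv1. In C4-2B, NUP58 stood at 219, 211 and 213 CPM in the knockdown libraries and at 280.0, 283 and 285 CPM in the controls. In 22Rv1, NUP58 read 139, 141 and 141 CPM after knockdown, against 139.9, 139.8 and 143 CPM in the controls. In DU145, NUP58 had 219, 227 and 208 CPM after knockdown, against 173, 176 and 179 CPM in the controls. It fell in C4-2B (-0.40 ± 0.04, adjusted p = 2.99e-09) and rose in DU145 (0.31 ± 0.05, adjusted p = 4.28e-06), each without overlap. In 22Rv1 the groups overlapped (-0.01 ± 0.04, adjusted p = 0.832), and under library totals (-0.09, adjusted p = 0.045) and cyclic loess (-0.15, adjusted p = 0.002) it passed the threshold on the lower side. NUP98 carries GLFG repeats, binds RAE1 and is made from a precursor that also yields the Y complex subunit NUP96. In C4-2B, NUP98 stood at 144, 166 and 165 CPM in the knockdown libraries and at 181, 171 and 169.6 CPM in the controls. In 22Rv1, NUP98 read 167, 163 and 171 CPM after knockdown, against 145, 134 and 131 CPM in the controls. In DU145, NUP98 had 192, 195 and 192 CPM after knockdown, against 172, 175 and 178 CPM in the controls. It rose in 22Rv1 (0.29 ± 0.04, adjusted p = 7.09e-06) and in DU145 (0.14 ± 0.05, adjusted p = 0.0113), where the call was lost without knockdown replicate 2 (0.155) and without the filter on low counts (0.0612). In C4-2B it was -0.13 ± 0.05 (adjusted p = 0.0392) with no overlap, and the call was lost in DESeq2 (adjusted p = 0.0569), under library totals (0.241), under cyclic loess (0.159), and without control replicate 1 (0.15), 2 (0.0565) or 3 (0.0526) or knockdown replicate 1 (0.232).

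NUP54 fell in C4-2B (-0.30 ± 0.08, adjusted p = 0.00503) and rose in DU145 (0.23 ± 0.05, adjusted p = 0.000511). In 22Rv1 it averaged 40.9 ± 2.24 CPM in knockdown libraries and 38.4 ± 1.74 CPM in controls, a log2 difference of 0.10 ± 0.06 (adjusted p = 0.187) with overlapping groups. NUP62, the third subunit of the trimer, averaged 156 ± 3.47 CPM in knockdown libraries and 113 ± 6.94 CPM in controls in 22Rv1 and rose there (0.46 ± 0.05, adjusted p = 2.13e-08). It was not called in C4-2B (-0.10 ± 0.05, adjusted p = 0.132) or DU145 (0.03 ± 0.05, adjusted p = 0.646), although under library totals the DU145 value of 0.08 passed (0.0379). Of the 3 genes of the trimer, 2 thus fell in C4-2B, 1 rose in 22Rv1 and 2 rose in DU145. NUP62 overlaps ATF5 and IL4I1, and NUP98 overlaps PGAP2 and CHRNA10.

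The 3 transmembrane genes of the membrane ring all rose in 22Rv1, while in DU145 NDC1 rose and POM121 and NUP210 fell. NDC1, which spans the membrane several times and anchors the scaffold, fell in C4-2B by 1.72-fold and had the smallest adjusted p of the pore genes there. In C4-2B, NDC1 stood at 63.1, 67.0 and 62.5 CPM in the knockdown libraries and at 113, 113 and 107 CPM in the controls. In 22Rv1, NDC1 read 129, 129.9 and 146 CPM after knockdown, against 123, 112 and 115 CPM in the controls. In DU145, NDC1 had 119.8, 127 and 115 CPM after knockdown, against 95.6, 98.9 and 102 CPM in the controls. Its log2 fold changes were -0.79 ± 0.05 in C4-2B (adjusted p = 3.92e-12), 0.21 ± 0.05 in 22Rv1 (adjusted p = 0.00116) and 0.28 ± 0.05 in DU145 (adjusted p = 2.34e-05), with the groups apart in each line and the 22Rv1 value at 0.07 under cyclic loess (adjusted p = 0.251). POM121, an FG subunit that takes part in pore assembly during interphase, had about equal and opposite changes in 22Rv1 and DU145. In C4-2B, POM121 stood at 189, 199 and 196 CPM in the knockdown libraries and at 193, 203 and 201 CPM in the controls. In 22Rv1, POM121 read 206, 198 and 203 CPM after knockdown, against 130.0, 125 and 122 CPM in the controls. In DU145, POM121 had 116, 113 and 119 CPM after knockdown, against 173, 195 and 194 CPM in the controls. In 22Rv1 all knockdown libraries lay above the controls (0.69 ± 0.04, adjusted p = 5.09e-12) and in DU145 all lay below (-0.69 ± 0.05, adjusted p = 6.80e-12), while in C4-2B the groups overlapped (-0.03 ± 0.04, adjusted p = 0.582). POM121 has a near-identical copy, POM121C, which held 50.2%, 45.9% and 47.6% of the reads of the pair in C4-2B, 22Rv1 and DU145. The copy moved alike (log2 0.05, 0.63 and -0.73), and the sum of both, an alternative chosen after the data were seen, gave 0.01, 0.66 and -0.69.

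NUP210, a glycoprotein of the pore membrane whose level differs widely between tissues, rose in 22Rv1. In C4-2B, NUP210 stood at 179, 207 and 217 CPM in the knockdown libraries and at 205, 220.0 and 203 CPM in the controls. In 22Rv1, NUP210 read 722, 707 and 716 CPM after knockdown, against 478, 449.7 and 418 CPM in the controls. In DU145, NUP210 had 128, 129.7 and 135 CPM after knockdown, against 135, 145 and 149.9 CPM in the controls. The 22Rv1 knockdown libraries were all above the controls (0.67 ± 0.04, adjusted p = 3.16e-11) and those of C4-2B overlapped them (-0.06 ± 0.06, adjusted p = 0.511). In DU145 it fell (-0.13 ± 0.05, adjusted p = 0.0272), a call lost without knockdown replicate 1 (adjusted p = 0.294) or 2 (0.166) or control replicate 2 (0.103) or 3 (0.413), under library totals (0.121), without the filter (0.0983) and in the fit of all 18 libraries (0.121).

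**Figure D3:**
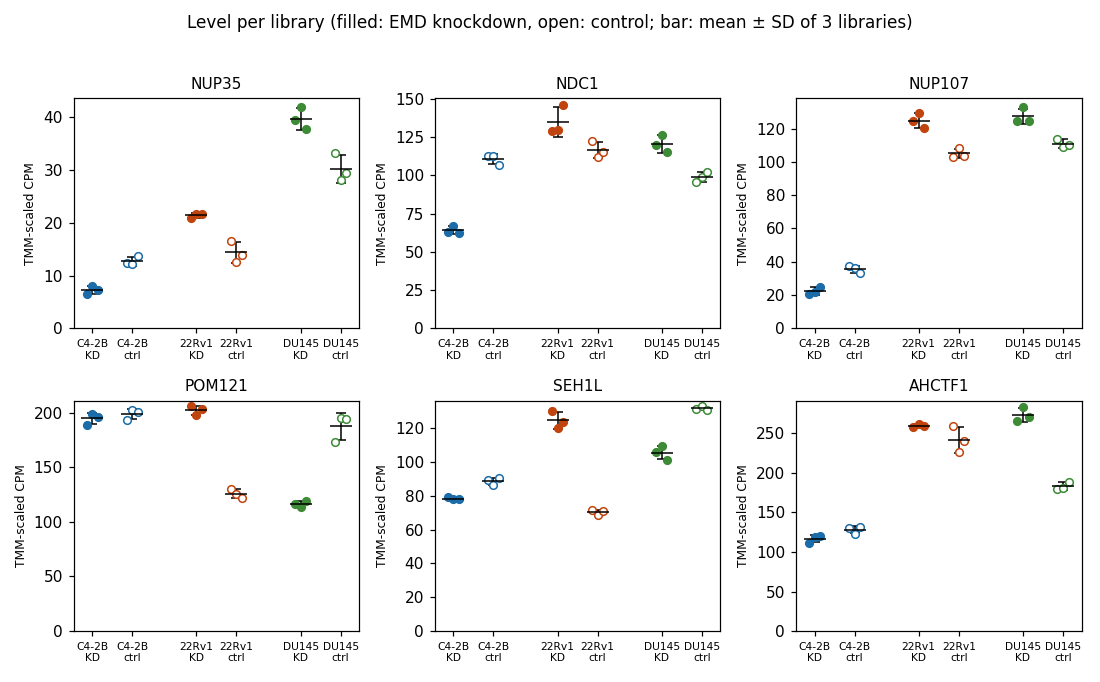
Level per library in TMM-scaled CPM (y axis, from 0) of 6 pore genes in knockdown (filled, left) and control libraries (open, right) of each line, with mean ± SD of 3 libraries. NUP35, NDC1 and NUP107 lie below the controls in C4-2B and above them in 22Rv1 and DU145, POM121 and SEH1L lie above in 22Rv1 and below in DU145, and AHCTF1 averages 273 CPM after knockdown and 183 CPM in controls of DU145.

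Among the cytoplasmic filament and mRNA release genes, 2 of 7 fell in C4-2B, 6 rose in 22Rv1, and 2 rose and 2 fell in DU145. RANBP2 (NUP358), the main filament protein, binds Ran and acts as a SUMO ligase. In C4-2B, RANBP2 stood at 215, 233 and 225 CPM in the knockdown libraries and at 286, 300.1 and 294 CPM in the controls. In 22Rv1, RANBP2 read 211, 211 and 200.2 CPM after knockdown, against 161, 145 and 149 CPM in the controls. In DU145, RANBP2 had 171, 176 and 172 CPM after knockdown, against 180.0, 196 and 196 CPM in the controls. It fell in C4-2B (-0.38 ± 0.04, adjusted p = 1.92e-08) and rose in 22Rv1 (0.45 ± 0.04, adjusted p = 8.86e-09), both without overlap. The small DU145 fall (-0.14 ± 0.05, adjusted p = 0.0157) was lost without knockdown replicate 1 (adjusted p = 0.177), 2 (0.0858) or 3 (0.0586), without control replicate 2 (0.0723) or 3 (0.233), and without the filter (0.0705). Copies of RANBP2 in the RGPD family share its sequence, and 7 of them held 27.1%, 31.7% and 26.2% of the joint reads in C4-2B, 22Rv1 and DU145. With these added, an alternative chosen after the data were seen, the log2 fold changes were -0.33 in C4-2B (adjusted p = 1.09e-07), 0.22 in 22Rv1 (adjusted p = 1.61e-05) and -0.09 in DU145 (adjusted p = 0.129). In 22Rv1 the joint level averaged 280.7 CPM after knockdown and 240.9 CPM in controls, where RANBP2 alone averaged 207.7 and 151.5 CPM. The copies together were thus lower after knockdown there. GLE1, which activates the helicase DDX19 to strip proteins from exported mRNA, fell in C4-2B and rose in the other lines. In C4-2B, GLE1 stood at 61.2, 64.6 and 62.3 CPM in the knockdown libraries and at 77.9, 77.1 and 76.3 CPM in the controls. In 22Rv1, GLE1 read 92.7, 87.7 and 88.3 CPM after knockdown, against 65.1, 64.4 and 67.5 CPM in the controls. In DU145, GLE1 had 85.9, 94.8 and 87.0 CPM after knockdown, against 75.0, 75.0 and 74.7 CPM in the controls. Its groups were apart in each line, at -0.30 ± 0.05 in C4-2B (adjusted p = 7.54e-05), 0.45 ± 0.05 in 22Rv1 (adjusted p = 5.78e-08) and 0.25 ± 0.05 in DU145 (adjusted p = 0.00012).

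NUP214 and NUP88, partners on the cytoplasmic face that receive export complexes, rose in 22Rv1 (0.36 ± 0.07 and 0.40 ± 0.05, adjusted p = 6.93e-05 and 3.92e-07). Neither passed in C4-2B (adjusted p = 0.654 and 0.243), and in DU145 both stood slightly lower at -0.11 ± 0.05 and -0.10 ± 0.05 (adjusted p = 0.0963 and 0.104). NUP214 passed in DU145 without control replicate 1 (-0.15, adjusted p = 0.0335), and NUP88 overlaps RABEP1 and RPAIN on the opposite strand. NUP42, which holds GLE1 at the pore, rose in 22Rv1 (0.33 ± 0.07, adjusted p = 0.000248) and DU145 (0.19 ± 0.06, adjusted p = 0.00468), the DU145 call being lost without knockdown replicate 2 (0.0773). AAAS (ALADIN), which binds NDC1, rose in 22Rv1 (0.34 ± 0.05, adjusted p = 1.64e-05), and in DU145 it was 0.11 ± 0.05 (adjusted p = 0.0814) and passed under library totals (0.00324), cyclic loess (0.0147) and without knockdown replicate 1 (0.0381) or 3 (0.00949). RAE1, the mRNA export partner of NUP98, was the 1 gene of the 31 that changed in DU145 alone, where it averaged 50.5 ± 1.39 CPM in knockdown libraries and 60.9 ± 1.44 CPM in controls (-0.27 ± 0.05, adjusted p = 6.27e-05). In 22Rv1 RAE1 was -0.08 ± 0.06 (adjusted p = 0.25) and passed as lower under library totals (-0.16, adjusted p = 0.0229) and cyclic loess (-0.17, adjusted p = 0.0136).

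Of the 3 nuclear basket genes, 1 fell in C4-2B, and in 22Rv1 2 rose and 1 fell. NUP50, which helps importins let go of their cargo, fell in C4-2B and rose in 22Rv1. In C4-2B, NUP50 stood at 71.1, 71.1 and 78.1 CPM in the knockdown libraries and at 87.0, 89.5 and 88.8 CPM in the controls. In 22Rv1, NUP50 read 134, 136 and 139 CPM after knockdown, against 90.1, 94.2 and 96.7 CPM in the controls. In DU145, NUP50 had 145, 149.7 and 145 CPM after knockdown, against 147, 158 and 155 CPM in the controls. The groups were apart in C4-2B (-0.27 ± 0.05, adjusted p = 0.000217) and 22Rv1 (0.54 ± 0.04, adjusted p = 7e-10) and overlapped in DU145 (-0.07 ± 0.05, adjusted p = 0.278). NUP153, which docks the basket to the ring and binds lamins, was with NUP43 1 of the 2 pore genes that fell in 22Rv1. In C4-2B, NUP153 stood at 68.2, 68.2 and 71.0 CPM in the knockdown libraries and at 74.2, 75.0 and 71.2 CPM in the controls. In 22Rv1, NUP153 read 88.5, 86.0 and 89.7 CPM after knockdown, against 117, 108 and 106 CPM in the controls. In DU145, NUP153 had 209, 219 and 208 CPM after knockdown, against 200.2, 209 and 211 CPM in the controls. In 22Rv1 every knockdown library lay below every control (-0.32 ± 0.05, adjusted p = 3.75e-06), in C4-2B the groups were apart without passing the test (-0.09 ± 0.05, adjusted p = 0.208), and in DU145 they overlapped (0.03 ± 0.05, adjusted p = 0.593), with 0.08 under library totals passing there (0.0296). TPR, the coiled-coil protein that builds the basket, averaged 290.1 ± 2.08 CPM in knockdown libraries and 218 ± 16.7 CPM in controls in 22Rv1 and rose (0.41 ± 0.04, adjusted p = 1.62e-07), and it was -0.08 ± 0.04 in C4-2B (adjusted p = 0.162) and -0.06 ± 0.05 in DU145 (adjusted p = 0.337). In DU145, 0 of the 3 basket genes changed in edgeR, 0 had an unadjusted p under 0.05, and TPR overlaps PRG4 on the opposite strand.

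Across the lines, 15 of the 31 genes changed in all 3, 9 in exactly 2 and 7 in exactly 1, and 0 of the 15 moved the same way in all 3. Of the 13078 genes tested in each line, 21.9% changed in all 3, 40.4% in exactly 2, 28.4% in exactly 1 and 9.34% in none, and 4.43% moved the same way in all 3. A fall in C4-2B with a rise in 22Rv1 was seen for 16 pore genes, and for 12.2% of the 13078. Of the 16 pore genes, 9 also rose in DU145 (NUP107, NUP85, NUP37, AHCTF1, NUP35, NUP93, NUP98, NDC1 and GLE1, a pattern of 4.53% of the 13078). Another 5 fell there (SEH1L, NUP155, NUP188, NUP205 and RANBP2) and 2 were not called there (SEC13 and NUP50). The shares of all genes with these last patterns were not computed. Of the 9, NUP35, NUP93 and GLE1 kept their calls in all 3 lines under every setting run, and of the 5, SEH1L and NUP205 did. The other genes of the 9 and the 5 lost at least 1 call in some setting, as given gene by gene above. Between 22Rv1 and DU145, 12 pore genes rose in both (12.8% of the 13078), and 7 rose in 22Rv1 and fell in DU145, namely SEH1L, NUP155, NUP188, NUP205, NUP210, POM121 and RANBP2 (11.5% of the 13078).

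The differences between the lines in the response to knockdown were tested over 17152 genes in a fit of all 18 libraries. Each pair of contrasts shares a line, so the contrasts are not independent. Taking C4-2B minus 22Rv1, 28 of the 31 pore genes were lower and 1 higher, against 56.1% of all tested genes differing, 27% lower and 29.1% higher. The genes with the smallest p were SEH1L (-0.96 ± 0.06, adjusted p = 1.95e-14), NDC1 (-0.95 ± 0.07, adjusted p = 6.91e-13), RANBP2 (-0.79 ± 0.07, adjusted p = 3.02e-12), NUP50 (-0.76 ± 0.07, adjusted p = 8.22e-12) and NUP93 (-0.89 ± 0.08, adjusted p = 1.25e-11), as differences of log2 fold changes with their SE. NUP35 had the widest difference at -1.31 ± 0.14, NUP153 was the 1 gene higher in C4-2B at 0.29 ± 0.07 (adjusted p = 0.000379), and NUP43 and RAE1 were not called. The difference for AHCTF1 (-0.18 ± 0.06, adjusted p = 0.0176) was lost without C4-2B control replicate 3 (adjusted p = 0.0502), C4-2B knockdown replicate 1 (0.0655) or 22Rv1 control replicate 2 (0.0722), and under library totals (-0.10, adjusted p = 0.161) and cyclic loess (-0.01, 0.859). Under cyclic loess the differences of SEC13 (-0.13, adjusted p = 0.0518), NUP214 (-0.21, 0.0608) and AAAS (-0.14, 0.18) also missed the threshold.

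For C4-2B minus DU145, 18 pore genes were lower and 2 higher, against 45.7% of all tested genes differing, 24.5% lower and 21.2% higher. NDC1 (-1.08 ± 0.07, adjusted p = 2.89e-14), NUP58 (-0.72 ± 0.05, adjusted p = 1.56e-13), AHCTF1 (-0.72 ± 0.06, adjusted p = 2.93e-11), NUP107 (-0.87 ± 0.08, adjusted p = 4.04e-11) and NUP93 (-0.72 ± 0.07, adjusted p = 6.18e-10) had the smallest p. The higher genes were POM121 (0.65 ± 0.07, adjusted p = 6.79e-10) and NUP205 (0.17 ± 0.06, adjusted p = 0.0184). NUP205 missed the threshold without C4-2B control replicate 3 (adjusted p = 0.0883), C4-2B knockdown replicate 2 (0.0805) or DU145 control replicate 2 (0.0601), which leaves 1 gene higher, and without DU145 control replicate 1 the higher genes were 4, with NUP155 (0.18, adjusted p = 0.036) and NUP188 (0.18, adjusted p = 0.0239) joining. RAE1 joined without C4-2B knockdown replicate 3 (0.22, adjusted p = 0.0393). Under library totals and under cyclic loess the higher genes were 5, with SEH1L (0.14, adjusted p = 0.0366, and 0.17, 0.0102), NUP155 (0.16, 0.0444, and 0.19, 0.0218) and NUP188 (0.16, 0.0337, and 0.19, 0.0118) joining.

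For 22Rv1 minus DU145, 13 pore genes were higher and 4 lower, against 55.6% of all tested genes differing, 25.3% higher and 30.4% lower. POM121 differed most (1.32 ± 0.07, adjusted p = 1.41e-17), followed in order of p by SEH1L (1.08 ± 0.06, adjusted p = 2.57e-16), NUP188 (0.92 ± 0.06, adjusted p = 4.31e-14), NUP205 (0.65 ± 0.06, adjusted p = 2.24e-11) and NUP155 (0.67 ± 0.07, adjusted p = 4.61e-10). The lower genes were NUP43 (-0.60 ± 0.07), AHCTF1 (-0.54 ± 0.06), NUP153 (-0.42 ± 0.06) and NUP58 (-0.38 ± 0.05). NUP93, the weakest of the higher genes (0.17 ± 0.07, adjusted p = 0.0328), missed the threshold without 22Rv1 control replicate 1 (adjusted p = 0.105) or 2 (0.0566), 22Rv1 knockdown replicate 1 (0.085) or 2 (0.0525), DU145 control replicate 2 (0.0652) or DU145 knockdown replicate 1 (0.059). It also missed without the filter (0.0504), under library totals (0.11, adjusted p = 0.172) and under cyclic loess (0.06, 0.535). NUP54 and NDC1 joined the lower genes under library totals (-0.26, adjusted p = 0.00663, and -0.20, 0.00864) and under cyclic loess (-0.28, 0.00788, and -0.26, 0.00251), and SEC13 joined under cyclic loess (-0.16, 0.0232).

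**Figure D4:**
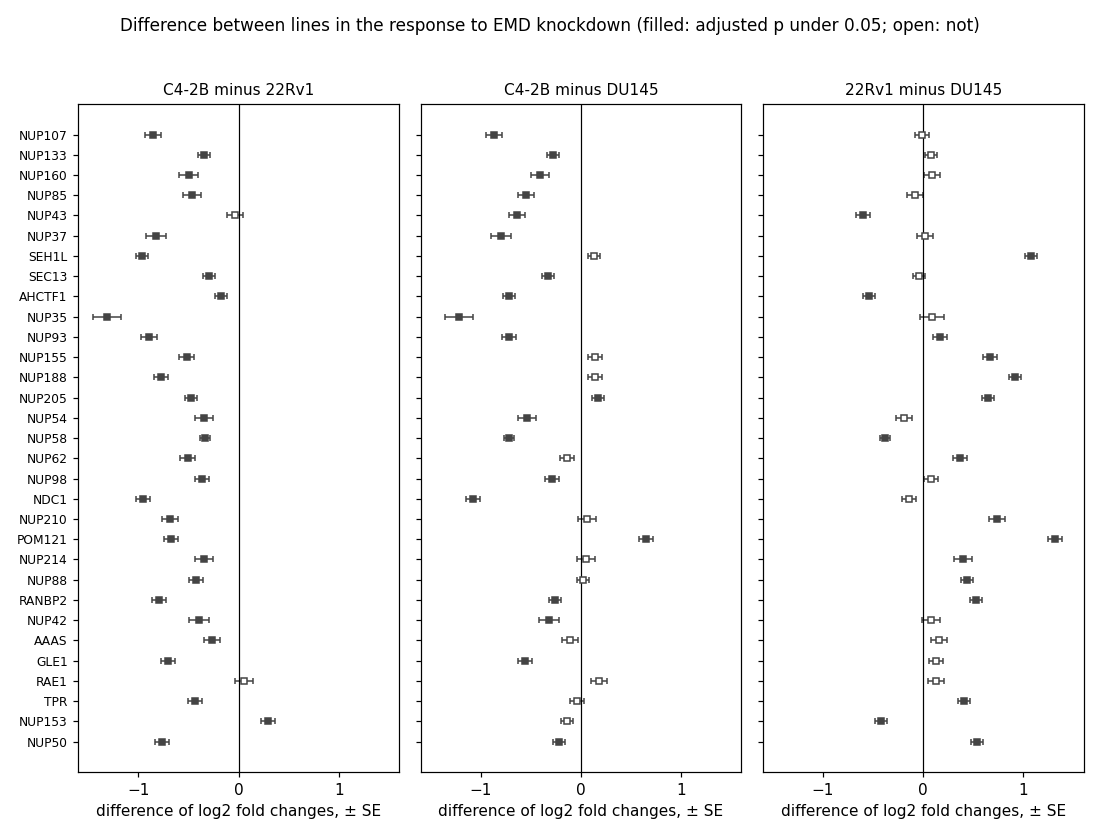
Difference between lines in the log2 fold change after knockdown (x axis, ± SE) for each pore gene (y axis), first line minus second. Filled squares have an edgeR adjusted p under 0.05: 28 lie left of 0 for C4-2B minus 22Rv1, 18 for C4-2B minus DU145, and 13 lie right of 0 for 22Rv1 minus DU145.

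Transport factors are the proteins that ferry cargo through the pore. Of 50 importins, exportins, Ran cycle and mRNA export genes, 5 rose and 25 fell in C4-2B (median log2 -0.13), 37 rose and 6 fell in 22Rv1 (0.26), and 16 rose and 12 fell in DU145 (0.01). As shares, 10% rose and 50% fell in C4-2B, 74% and 12% in 22Rv1, and 32% and 24% in DU145. Over all tested genes 19.4% rose and 22.3% fell in C4-2B, 33.5% and 34.3% in 22Rv1, and 24.1% and 23.6% in DU145. The falling share of DU145 was thus near that of all genes. In C4-2B the largest falls were in KPNA2, an importin alpha, with 76.6 ± 3.91 CPM in knockdown libraries and 143 ± 1.28 CPM in controls (-0.90 ± 0.05, adjusted p = 6.70e-14), and RANBP1, a cofactor of Ran GTP hydrolysis, with 63.7 ± 1.63 CPM in knockdown libraries and 106 ± 6.11 CPM in controls (-0.73 ± 0.05, adjusted p = 3.89e-11). XPO5, the exporter of microRNA precursors (0.57 ± 0.05, adjusted p = 1.40e-09), and NXF1, the main mRNA export receptor (0.49 ± 0.06, adjusted p = 6.27e-07), rose there. In 22Rv1 the importin IPO4 (1.42 ± 0.04, adjusted p = 3.62e-16) and the THO complex gene THOC1 (1.02 ± 0.07, adjusted p = 2.28e-10) rose most, and the importins KPNA6 (-0.51 ± 0.04, adjusted p = 1.83e-10) and TNPO2 (-0.42 ± 0.04, adjusted p = 3.77e-09) fell most. In DU145 CETN3, a centrin that is also part of the mRNA export complex TREX-2 (0.50 ± 0.07, adjusted p = 4.07e-07), and RCC1, the exchange factor that loads Ran with GTP on chromatin (0.45 ± 0.05, adjusted p = 4.19e-08), rose most. MCM3AP, the TREX-2 scaffold (-0.55 ± 0.05, adjusted p = 1.04e-10), and CSE1L, which exports importin alpha (-0.45 ± 0.05, adjusted p = 2.12e-08), fell most in DU145.

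Cell cycle genes moved beside the pore genes, and their part in the pore result was not tested. In C4-2B all 25 G1/S and DNA replication genes fell (median log2 -1.31) and all 25 G2/M genes fell (-2.30), with summed levels of 384, 378 and 389 CPM after knockdown against 1669, 1635 and 1634 CPM in controls for the G2/M list. In 22Rv1, 24 G1/S genes rose (median 0.47), and 21 G2/M genes rose and 1 fell (0.47). The G2/M list summed there to 3461, 3399 and 3409 CPM after knockdown, against 2539, 2457 and 2528 CPM in controls. In DU145, where 24.1% of all tested genes rose and 23.6% fell, 7 G1/S genes rose and 4 fell (28% and 16%, median 0.00). Of the G2/M genes of DU145, 14 rose and 6 fell (56% and 24%, median 0.13). Its G2/M sums were 6155, 6483 and 6218 CPM after knockdown, against 5888, 6074 and 6026 CPM in controls. The sums thus stood on the same side of the controls as the pore sums in C4-2B and 22Rv1, at ratios of 0.233 and 1.36, and at 1.05 in DU145, where the pore sum was at 0.981.

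The control libraries also differed in pore gene levels between lines, as a description across tables that were scaled separately. C4-2B controls had the lowest mean of the 3 lines for 16 of the 31 genes, and for 14 of them every C4-2B control lay below every control of the other lines. Control means of NUP107 were 35.5 ± 2.09 CPM in C4-2B, 105 ± 2.90 CPM in 22Rv1 and 111 ± 2.56 CPM in DU145 (SD, n = 3). Those of NUP35 were 12.7 ± 0.836 CPM in C4-2B, 14.4 ± 2.05 CPM in 22Rv1 and 30.2 ± 2.68 CPM in DU145, of which C4-2B and 22Rv1 overlapped. For NUP210 the order was another, with 209 CPM in C4-2B, 448 CPM in 22Rv1 and 143 CPM in DU145. DU145 controls had the highest mean for 16 genes and 22Rv1 controls for 10.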

How the data were processed

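The processing tools were STAR for alignment to GRCh38 and RSEM 1.3.1 for counting per gene, per the submitters' processing notes. The deposited values are the expected counts of RSEM, 1 table per line, given as whole numbers; the rounding step, the annotation release and the strand setting are not given in the sources used here. In DU145, 92 spike-in sequences and 30 second copies of pseudoautosomal genes were left out. No sample column was left unused (0). The counts were used as deposited, as whole numbers. The 6 libraries of a line went into 1 fit in edgeR 4.0.16 (R 4.3.3), a robust quasi-likelihood F test after TMM scaling and the filterByExpr filter (at least 10 reads, 15 in total), with Benjamini-Hochberg adjustment over all genes tested and a threshold of 0.05. Differences between lines were tested as interaction contrasts over 18 libraries and the genes found in all 3 tables (18445 before the filter). Alternatives were library totals, DESeq2 1.42.0, no filter, cyclic loess with limma 3.58.1, a replicate block, all libraries in 1 fit and leaving out each library. Depth sets counting error only; spread between replicates adds to it.

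The members, the lists and the promoter motifs were chosen with earlier results of these data known. Values in every library are given for members that passed in all 3 lines, for the 3 most positive and 3 most negative members past the threshold in each line, and for the 5 with the smallest p in each contrast; of the other lists, the 2 most positive and 2 most negative past the threshold are named. The SE of a log2 fold change was obtained by dividing it by the square root of F. RSEM divides reads among near-identical copies by estimation, and reads of overlapping genes may be shared. One prostate marker is not reported here. Gene limits come from GENCODE v29 and promoter windows from RefSeq (first window listed per gene).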

Additional observations from a re-analysis of the deposited data

Results flagged for a closer look

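The response of the pore genes to EMD knockdown differed between the lines by the edgeR interaction test, and these differences are set out here by contrast, in log2 units, as the first line minus the second. Only the counts and the 5 members with the smallest p in each contrast are listed. Groups hold 3 libraries each, so no library was tested as an outlier.

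For C4-2B minus 22Rv1, 28 pore genes were lower in C4-2B and 1, NUP153, was higher, against 27% and 29.1% of all tested genes. The differences were -0.96 for SEH1L, -0.95 for NDC1, -0.89 for NUP93, -0.79 for RANBP2 and -0.76 for NUP50.

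For C4-2B minus DU145, 18 were lower in C4-2B and 2 higher, against 24.5% and 21.2% of all tested genes. NDC1 differed by -1.08, NUP107 by -0.87, and NUP58, AHCTF1 and NUP93 by -0.72 each.

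For 22Rv1 minus DU145, 13 were higher in 22Rv1 and 4 lower, against 25.3% and 30.4% of all tested genes. The 17 of 31 pore genes that differed in this contrast were near the 55.6% of all tested genes that did. POM121 differed by 1.32, SEH1L by 1.08, NUP188 by 0.92, NUP155 by 0.67 and NUP205 by 0.65. Line, table and batch label coincide in these contrasts, as does medium in the contrasts with DU145, and which of them the differences follow cannot be told apart.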

How the results depend on the processing

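The direction of the pore genes as a group held in C4-2B and 22Rv1 under every alternative run. In C4-2B between 16 and 20 fell and 0 rose, and in 22Rv1 between 21 and 26 rose. DU145 had no single direction, with between 9 and 19 rising and between 6 and 10 falling. The count of 9 there came without knockdown replicate 2. Of the single calls, 16 of 19 in C4-2B, 23 of 28 in 22Rv1 and 15 of 23 in DU145 held under all settings, as did 25 of 29, 19 of 20 and 16 of 17 of the differences for C4-2B minus 22Rv1, C4-2B minus DU145 and 22Rv1 minus DU145. In 22Rv1 the pore genes that fell were 4 under library totals and 4 under cyclic loess, against 2. Under cyclic loess in 22Rv1, SEC13 turned to -0.03 and AHCTF1 to -0.04; the cause was not tested. For C4-2B minus DU145 the pore genes higher in C4-2B were 5 under library totals and 5 under cyclic loess, against 2, and for 22Rv1 minus DU145 the lower ones were 7 under cyclic loess, against 4; the cause was not tested.

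Leaving out 1 library at a time, the DU145 pore genes that rose ran from 9 to 17, those that fell from 6 to 9, the C4-2B genes that fell from 16 to 20 and the 22Rv1 genes that rose from 23 to 25. For C4-2B minus DU145 the higher pore genes ran from 1 to 4 and the lower from 18 to 19.

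The labels do not say whether a replicate number marks a shared culture or day. Same-numbered deviations correlated at -0.01, 0.01 and 0.03 in C4-2B, 0.02, -0.03 and -0.05 in 22Rv1 and 0.12, 0.31 and 0.03 in DU145. In DU145, knockdown replicates 1 and 2 each correlated best with the control of their own number, and knockdown replicate 3 with control replicate 1 (0.17). With 3 libraries per group, a pairing cannot be told from these values. With the replicate number as a block, 0 pore genes rose and 18 fell in C4-2B, 26 rose and 2 fell in 22Rv1, and 16 rose and 10 fell in DU145. Over all genes the block gave 3078 rising and 3545 falling in C4-2B, 5540 and 5606 in 22Rv1, and 4999 and 4861 in DU145. The block within lines gave 1 higher and 28 lower for C4-2B minus 22Rv1, 3 and 19 for C4-2B minus DU145, and 13 and 4 for 22Rv1 minus DU145. The block took away the C4-2B call of NUP98 (adjusted p = 0.0667) and added NUP214 (0.0419), NUP88 (0.0488) and AAAS (0.0439) in DU145. In none of the lines did every library correlate best with its own number.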
